A study of Mus musculus with 17 samples.

Results

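The genes described here are 34 that serve glycolysis or answer to low oxygen, chosen by name and followed across mouse limb buds at E12.5, a mid-gestation stage. They fall into 15 glycolytic enzymes, 4 genes of glucose and lactate transport and the pyruvate switch, 13 other hypoxia targets and 2 oxygen-sensing regulators. All 34 are among the 34682 genes of the count table, and 33 of them passed the filter on low counts that left 17655 genes to test. The exception was Aldoa, the muscle-type aldolase, which stood at 0 in every library while a second entry of the same name, Aldoa_copy2, held counts in all of them.

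The study asked how duplications and the loss of a domain boundary at the Sox9/Kcnj locus change gene activity in the limb. The mutants were Dup-C (2 libraries) and Dup-L (2), which carry duplications there, Dup-LΔBor (4, named R2 to R5 in the headers, where R4 and R5 carry the same library number), which joins the Dup-L duplication to the boundary deletion ΔBor, ΔBor heterozygotes (het, 2) and a ΔBor homozygote (hom, 1). They were set against wild type (WT, 4). The labels give limb buds of the same embryonic age for all of them, but not the strain, the zygosity of the duplications, the limb taken or the number of embryos in a library, so p-values measure the spread between libraries, which may be technical. Counts of R4 and R5 differed more than those of R3 and R4 or of the Dup-L pair, so all 4 Dup-LΔBor libraries were counted. E17.5 fingertip samples are not analysed here.

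Glycolysis splits glucose into pyruvate in the cytosol, and lactate dehydrogenase turns that pyruvate into lactate when oxygen is short or growth is fast. In low oxygen the prolyl hydroxylases that mark hypoxia-inducible factor (HIF) alpha subunits for destruction slow down, and the stabilised factor binds short DNA motifs with the core ACGTG or GCGTG beside many of the enzymes, glucose transporters and angiogenic genes. In the mouse limb HIF1A is known to be needed for survival of the poorly vascularised cartilage core. Because a limb bud mixes cell types, fewer cells that use a gene and less RNA of it per cell cannot be told apart in these data.

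Total counts ran from 36088009 to 53371442 in the 9 libraries with header numbers of a first range (WT 1 and 2, Dup-C, Dup-L, ΔBor) and from 34486256 to 53711742 in the 6 of a second range (Dup-LΔBor, WT 3 and 4). Genotypes were compared within a range. Pitx1, a hindlimb regulator, stood between 39.9 and 116 CPM, read counts scaled to library size, in 11 libraries, but at 0.518 and 0.677 CPM in Dup-L and at 1.83 CPM in both WT 2 and WT 4. With all libraries in, no comparison with WT therefore matched libraries on this gene, and its part in the results was not tested. Leaving out WT 1 for Dup-L, WT 4 for Dup-LΔBor or WT 2 for the other mutants kept a single WT library on the same side of this gap. The level of mt-Nd4, the mitochondrially encoded gene of the table, ran from 0.14% of counts in R2 to 0.451% in Dup-L 1.

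Libraries were ranked by the mean over the 33 genes of log2 CPM centred on each gene's mean. The 4 Dup-LΔBor libraries took the first 4 places, with 1.22 in R2, 0.64 in R5, 0.41 in R3 and 0.20 in R4. The 4 WT libraries lay together between -0.11 and -0.036, and both Dup-C libraries beside them at -0.11 and -0.20. Below all of these came ΔBor het at -0.30 and -0.43, Dup-L at -0.32 and -0.38 and ΔBor hom at -0.40. The first 3 places held under every other scaling, with FPKM and without either the enzymes or the targets, while the lowest place passed between ΔBor het 1, ΔBor hom and Dup-L 2.

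**Figure D1:**
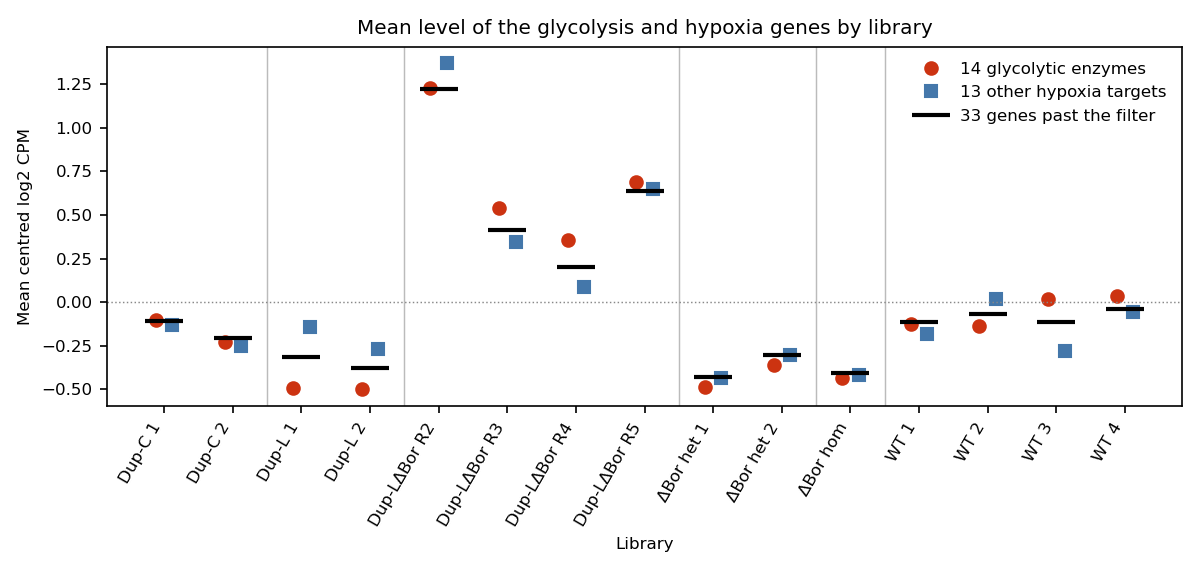
Mean centred log2 CPM in each library (y axis) of 14 glycolytic enzymes (circles), 13 other hypoxia targets (squares) and all 33 genes past the filter (bars); libraries are grouped by genotype, with WT at the right. All 4 Dup-LΔBor libraries lie above 0.08 for both lists, and in Dup-L the enzymes lie near -0.50 with the targets at -0.14 and -0.27.

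The enzymes and the other targets had like means in some genotypes and lay apart in others. In Dup-LΔBor the enzyme mean was 0.70 ± 0.38 and the target mean 0.61 ± 0.56 (SD, n = 4), and without R2 they were 0.53 ± 0.17 and 0.36 ± 0.28 (SD, n = 3). In Dup-L the enzymes averaged -0.50 ± 0.0048 and the targets -0.21 ± 0.088 (SD, n = 2). WT averaged -0.052 ± 0.092 for enzymes and -0.13 ± 0.13 for targets (SD, n = 4). The difference of enzymes minus targets was -0.35 and -0.23 in Dup-L, below every WT library, which ran from -0.16 to 0.30, whereas the 4 Dup-LΔBor libraries ran from -0.14 in R2 to 0.27 in R4 and overlapped WT.

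**Figure D2:**
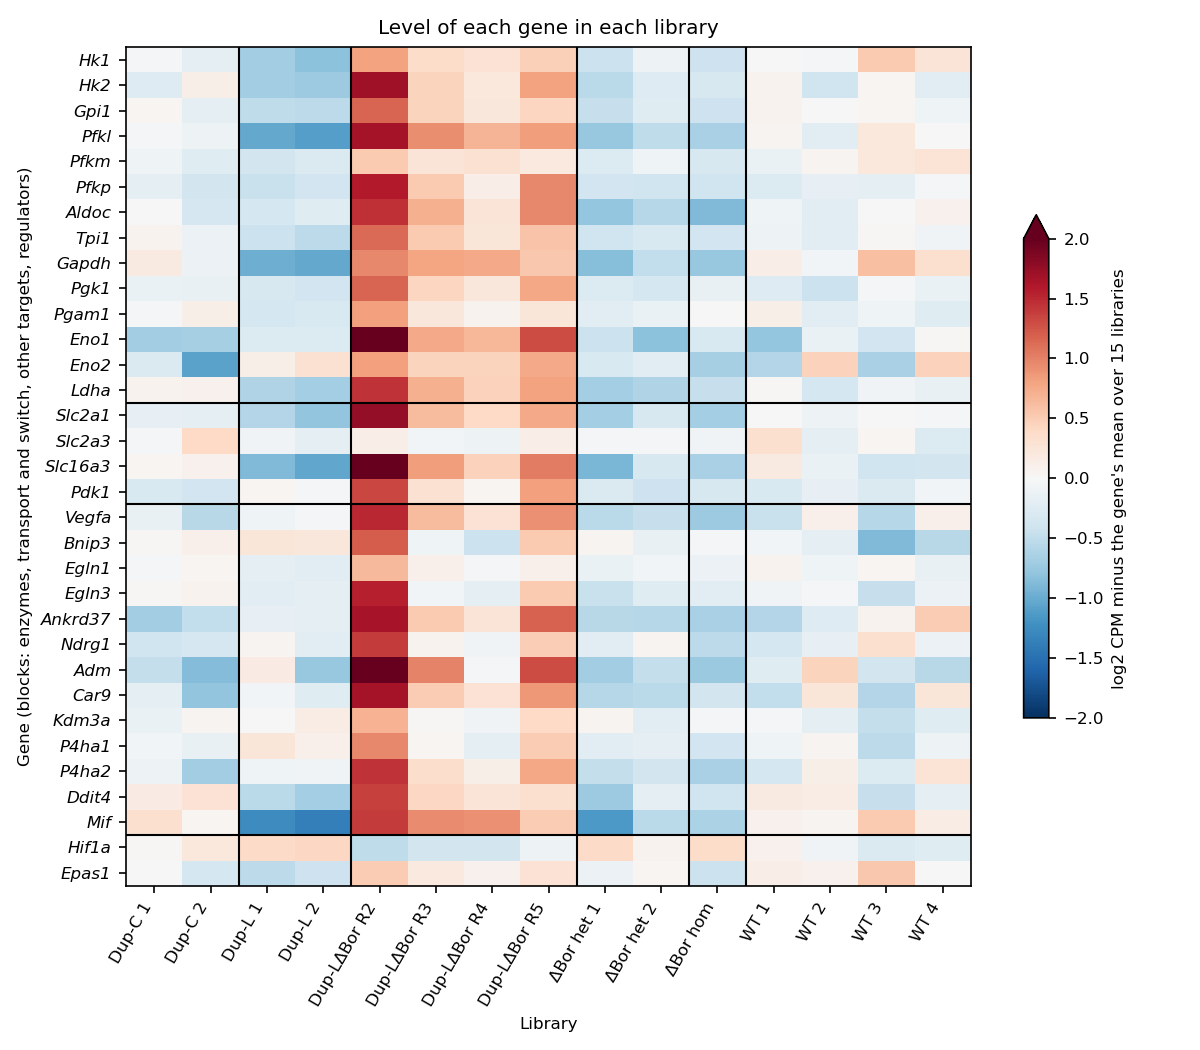
Level of each of the 33 genes (down the page, in blocks by role) in each library (across, grouped by genotype), as log2 CPM minus the gene's mean over the 15 libraries; the colour scale stops at 2 in either direction. The R2 column is the darkest red for nearly all genes, Hif1a in the bottom block runs the other way, and Slc2a3 is pale throughout.

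Per length, the abundant members were the enzymes of the later steps of glycolysis. On the deposited FPKM scale Gapdh, which oxidises glyceraldehyde phosphate, had the highest mean level over the 15 libraries, 636 FPKM, followed by Ldha at 436, Pgk1 at 309 and Tpi1 at 301. The highest of the transport genes was Slc2a1, the GLUT1 glucose transporter, at 56.1 FPKM, the highest of the other targets was the cytokine gene Mif at 61.9 FPKM, and Hif1a stood at 30.2 FPKM against 3.92 FPKM for Epas1, which encodes HIF2 alpha. Adm, the vasodilator adrenomedullin, was lowest at 0.547 FPKM. Aldoa_copy2 had 198 FPKM. Eno1, an enolase, had only 1.55 FPKM beside 297 FPKM for a near-identical entry, Eno1b, so the Eno1 values are uncertain.

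In Dup-LΔBor, 31 of the 33 genes stood higher than in WT 3 and 4, with a median log2 fold change of 0.75 against -0.0028 over all genes tested, but none passed the threshold of 0.05 on the adjusted p from edgeR's quasi-likelihood test. Of all genes tested, 0.396% were called in that comparison. At an unadjusted p under 0.05, 24 of the 33 were higher and 0 lower, where 7.50% of all genes were higher. DESeq2 called 11 of them higher, and without R2 edgeR called 3. The exceptions to the higher levels were the regulators Hif1a and Epas1. The levels differed among the 4 mutant libraries, since R2 was the highest of all 15 libraries for 30 of the 33 genes.

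The promoters of the 3 members with the lowest p in that comparison whose reads are not split with a second entry are shown, because their windows differ in the number of HIF core motifs. They were picked after the values were seen. Each runs from 250 bases before to 50 after the annotated start, read on the gene's strand from RefSeq sequence of GRCm38.p6, a newer build than the mm9 of the counts, and capitals mark ACGTG or GCGTG on either strand, where CACGTG counts on both.
Ldha, chr7:46845554-46845853, plus strand: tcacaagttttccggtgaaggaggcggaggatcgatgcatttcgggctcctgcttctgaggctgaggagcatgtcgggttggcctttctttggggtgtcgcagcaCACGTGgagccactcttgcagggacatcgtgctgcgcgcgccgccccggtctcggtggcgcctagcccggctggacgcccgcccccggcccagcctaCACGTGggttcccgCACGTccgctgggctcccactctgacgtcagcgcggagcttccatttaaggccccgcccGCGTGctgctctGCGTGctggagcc
Pfkl, chr10:78009758-78010057, minus strand: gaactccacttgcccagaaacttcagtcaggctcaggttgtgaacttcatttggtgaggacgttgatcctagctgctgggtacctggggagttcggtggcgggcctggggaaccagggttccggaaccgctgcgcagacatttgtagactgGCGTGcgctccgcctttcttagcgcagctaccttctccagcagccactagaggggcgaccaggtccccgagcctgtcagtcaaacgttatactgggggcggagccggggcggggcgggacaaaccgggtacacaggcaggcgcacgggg
Pgk1, chrX:106186850-106187149, plus strand: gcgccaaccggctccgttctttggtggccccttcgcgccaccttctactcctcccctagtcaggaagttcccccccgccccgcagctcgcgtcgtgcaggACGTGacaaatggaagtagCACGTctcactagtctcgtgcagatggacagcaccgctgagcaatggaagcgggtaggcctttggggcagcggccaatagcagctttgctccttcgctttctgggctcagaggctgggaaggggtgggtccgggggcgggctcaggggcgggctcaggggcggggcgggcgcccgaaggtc
The Ldha window held 7 matches, the most of any window of a member, the Pgk1 window 2 and the Pfkl window 1. Windows were given for 31 of the 34 genes, and 28 of these had a match. Over the 45 windows of members 77.8% held a match, against 43.8% of the 32851 windows of all genes, and ACGTG alone was in 53.3% against 19.6%. The share was 76% for the enzymes and 80% for the other targets. The members were chosen by name from classes in which such motifs are known, so the higher share is a description and not a test. A match is a string of letters in a window and not a bound site.

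Among the enzymes Ldha, the lactate-forming enzyme, came nearest to the threshold. It had 2382, 1434, 1198 and 1533 CPM in Dup-LΔBor R2 to R5, against 830.1 and 784 CPM in WT 3 and 4. The groups did not overlap, and WT 1 and 2, at 891 and 683 CPM, were also below all 4 mutant libraries. Its log2 fold change was 1.02 ± 0.22 (SE, n = 4 and 2), with an edgeR adjusted p of 0.0634. Pfkl, the liver-type phosphofructokinase of the committed step, had 771, 465, 388 and 436 CPM in Dup-LΔBor, against 282 and 244 CPM in WT 3 and 4, a log2 fold change of 0.97 ± 0.23 with an adjusted p of 0.0986. Pgk1, which makes the first ATP of the pathway, had 1368, 826, 716 and 1046 CPM in Dup-LΔBor, against 595 and 559 CPM in WT. None of these 3 genes had a Dup-LΔBor library within the WT range.

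Of the hexokinases that trap glucose, Hk2, the inducible form, and Hk1, the constitutive one, differed. Hk2 had 241, 101, 86 and 129.8 CPM in Dup-LΔBor, against 76 and 64 CPM in WT 3 and 4 (log2 fold change 0.99 ± 0.36, edgeR adjusted p = 0.255). Hk1 had 124, 91.5, 86.9 and 98.4 CPM, against 102 and 85 CPM (0.10 ± 0.13, adjusted p = 0.81), and its groups overlapped. The phosphofructokinases showed the same range of sizes, from a log2 fold change of 1.02 for the platelet-type Pfkp to 0.079 for the muscle-type Pfkm. Gapdh, at 1926, 1694, 1671 and 1434 CPM in Dup-LΔBor, overlapped WT 3 and 4 at 1486 and 1225 CPM, with a log2 fold change of 0.31. The remaining enzymes Gpi1, Aldoc, Tpi1, Pgam1 and Eno2 had log2 fold changes between 0.53 and 0.87, and none passed the threshold. Eno1, whose values are uncertain, had 11.4, 4.78, 4.48 and 6.97 CPM in Dup-LΔBor, against 2.15 and 2.86 CPM in WT 3 and 4. Eno1b, the near-identical entry with most of the reads, had 1041, 716, 602 and 740 CPM, against 820 and 473 CPM, and its groups overlapped.

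The transport genes had the largest median, 0.94. Slc16a3, the lactate exporter MCT4, had 182, 77.4, 60 and 88.7 CPM in Dup-LΔBor, against 33 and 33.9 CPM in WT 3 and 4. Every mutant library lay above all 4 WT libraries, of which WT 1 was highest at 49.4 CPM. The log2 fold change was 1.61 ± 0.39 with an edgeR adjusted p of 0.121. Slc2a1 had 496, 227, 193 and 247 CPM in Dup-LΔBor, against 147 and 142 CPM in WT 3 and 4 (1.01 ± 0.32, adjusted p = 0.196). Pdk1, the kinase that keeps pyruvate out of the mitochondrial cycle, had a log2 fold change of 0.88. Slc2a3, the GLUT3 transporter, did not share the pattern: it had 292, 256, 248 and 292 CPM in Dup-LΔBor, within the 221 to 330.4 CPM of the 4 WT libraries.

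All 13 other targets were higher in Dup-LΔBor than in WT 3 and 4, with log2 fold changes from 0.28 for Egln1, an oxygen-sensing prolyl hydroxylase, to 1.92 for Adm. Vegfa, the endothelial growth factor, had 331, 181, 142 and 219 CPM in Dup-LΔBor, against 78 and 124.6 CPM in WT 3 and 4 (1.11 ± 0.32, edgeR adjusted p = 0.168). The mitophagy gene Bnip3 had 137, 55.9, 44.2 and 85.5 CPM, against 32.1 and 40.3 CPM. That gap was not seen against WT 1 and 2, whose 57.1 and 51.5 CPM lay within the mutant range. Mif had 88.9, 65.1, 64.1 and 48.3 CPM in Dup-LΔBor, and its lowest library lay just below the 48.6 CPM of WT 3, with WT 4 at 37.7 CPM. Ankrd37, Car9, Egln3, Ndrg1, Kdm3a, P4ha1, P4ha2 and Ddit4 had log2 fold changes between 0.47 and 1.07.

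Neither regulator was higher in Dup-LΔBor than in WT 3 and 4. Hif1a had 130.2, 144, 144 and 172 CPM in Dup-LΔBor, against 152 and 156 CPM in WT 3 and 4, a log2 fold change of -0.06 ± 0.11 with an edgeR adjusted p of 0.865. R2, highest for 30 of the members, was the lowest of all 15 libraries for Hif1a. Epas1 had 33.2, 26.8, 24.8 and 28.7 CPM, against 34.1 and 23.2 CPM (-0.017 ± 0.15, adjusted p = 0.98).

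Over whole libraries, 15 of 33 genes had no overlap between the 4 Dup-LΔBor and the 4 WT libraries, all of them higher in the mutant, where 6.89% of all genes did so. They were 9 of 14 enzymes (with Eno1, the entry of few reads), 3 of 4 transport genes and 3 of 13 other targets (Vegfa, Car9, Ddit4). Against WT 3 and 4 alone the count was 19 of 33, beside 12.3% of all genes. In 13 of the 33, beside 4.48% of all genes, all 4 Dup-LΔBor libraries lay above all 11 other libraries.

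The levels of R2 set the size of several of these differences. R2 was 1.66 times the mean of R3 to R5 for the median enzyme, 2.06 times for the median transport gene and 2.01 times for the median other target, against 0.996 times for the median gene tested. The ratio was highest for Adm, 2.81, and Egln3, 2.69, and lowest among the enzymes for Pfkm, Gapdh and Eno2, each at 1.2. Hif1a had 0.849. Without R2 the median log2 fold change over WT 3 and 4 was 0.56 for the enzymes and 0.44 for the other targets, against 0.73 and 0.75 with it.

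With R2 left out, 3 members were called higher, beside 0.182% of all genes: Slc16a3 (log2 fold change 1.16, adjusted p = 0.0188), Ldha (0.77, 0.0249) and Pfkl (0.70, 0.0274), all from edgeR. With R4 left out instead 2 were called, beside 0.119% of all genes. With all 4 WT libraries taken as 1 group 13 members rose, beside 2.25% of all genes. The enzymes were Gpi1, Pfkl, Pfkp, Aldoc, Tpi1, Pgk1, Ldha and Eno1, the entry of few reads beside Eno1b. The others were Slc2a1, Slc16a3 and Pdk1 of the transport genes and Vegfa and Mif of the targets. That grouping mixes the header ranges, and without R2 it left 8, beside 0.523% of all genes. DESeq2 within the range called 11 higher, beside 1.23%, and offsets for GC content and transcript length left Ldha alone, beside 0.521%.

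Markers of other cell types stood as follows. Skeletal muscle markers (9 of 9 in the table) summed to between 386 and 881 CPM in Dup-LΔBor and between 411 and 839.5 CPM in WT. Cartilage markers (6 of 7) summed to 1512 CPM in R2, 995 to 1098 CPM in R3 to R5 and 760.1 to 1358 CPM in WT. Endothelial markers (10 of 10) summed to between 366 and 459 CPM in Dup-LΔBor, highest in R2, and between 337 and 431 CPM in WT, and erythroid markers, 3 of 12 at 0 in every library, to between 2151 and 3467 CPM and between 1789 and 5028 CPM. Immediate early and heat shock genes (9 of 9) summed to between 132 and 165 CPM in Dup-LΔBor and between 127 and 141 CPM in WT. Surface ectoderm markers (7 of 7) summed to between 579 and 699 CPM in Dup-LΔBor and between 606 and 954 CPM in WT, macrophage markers (9 of 9) to between 68.5 and 81.6 CPM and between 71.8 and 87.1 CPM. Nerve and glia markers (5 of 5) summed to between 63.9 and 72.6 CPM in Dup-LΔBor and between 68.2 and 75.7 CPM in WT, and DESeq2 called 2 of the 5 lower. Limb mesenchyme markers (7 of 7) summed to between 1819 and 1947 CPM in Dup-LΔBor and between 1866 and 2083 CPM in WT. The part of these cell types in the result was not tested.

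**Figure D3:**
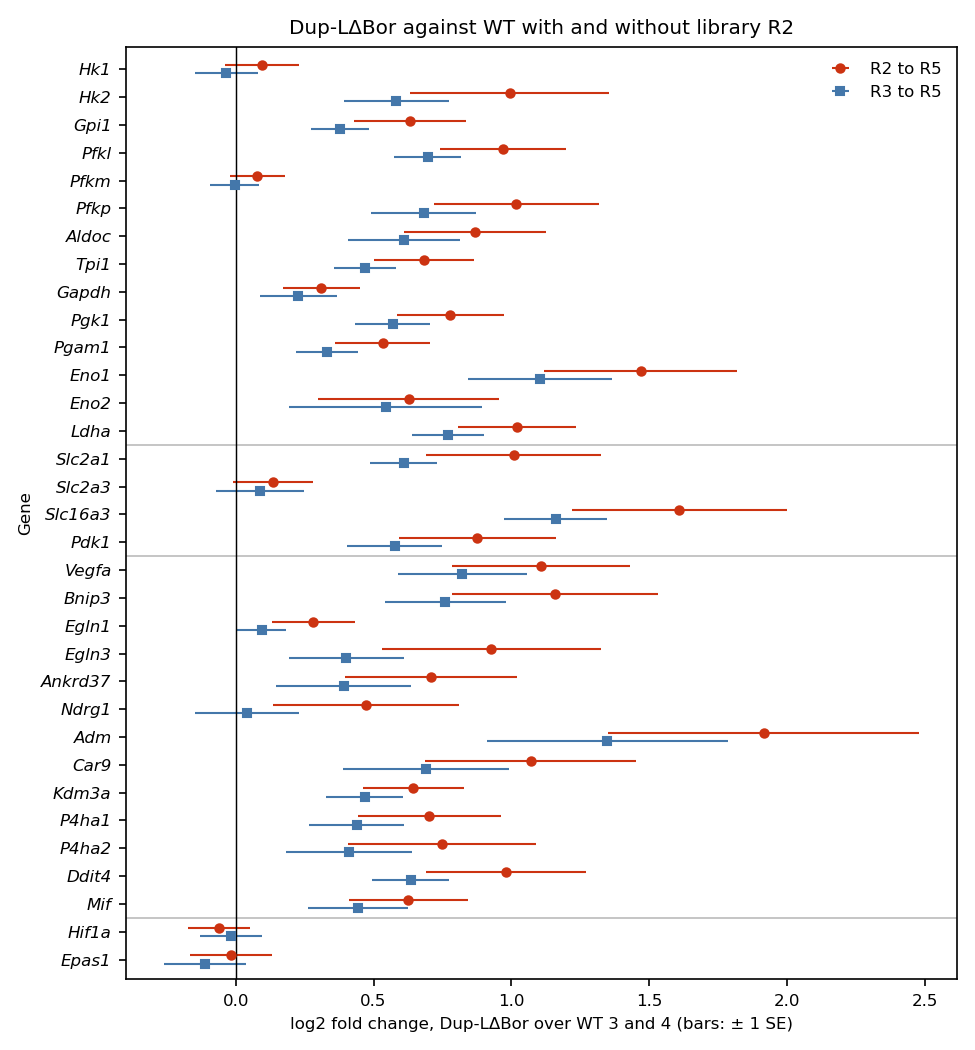
Log2 fold change (x axis, bars ± 1 SE from edgeR) of each gene (down the page, in blocks by role) in Dup-LΔBor over WT 3 and 4, with all 4 mutant libraries (circles) and without R2 (squares). Leaving out R2 moved nearly all values toward 0, and Slc16a3, Ldha and Pfkl kept log2 fold changes of 1.16, 0.77 and 0.70.

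In Dup-L the enzymes were lower by their median. Of the 33 genes 6 were called against WT 1 and 2, where 23.7% of all genes were called. Gapdh, Hk1, Pfkl, Mif and Epas1 fell, beside 13.2% of all genes that fell, and Hif1a rose, beside 10.5% that rose. The median log2 fold change was -0.30 for the 14 enzymes, 0.013 for the 13 other targets and 0.024 for all genes tested. Of the enzymes 11 of 14, and of all 33 genes 18, were lower in both Dup-L libraries than in WT 1 and 2, beside 31.3% of all genes.

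Gapdh had 498 and 483 CPM in Dup-L, against 1077 and 946 CPM in WT 1 and 2, a log2 fold change of -1.04 ± 0.16 (SE, n = 2 each) with an edgeR adjusted p of 0.00623. Pfkl had 120.2 and 113 CPM, against 252 and 207 CPM (-0.97 ± 0.25, adjusted p = 0.019). Hk1 had 43.9 and 40.1 CPM, against 71.5 and 68.6 CPM (-0.74 ± 0.16, adjusted p = 0.00842). In all 3 enzymes Dup-L lay below every other library. Ldha, at 574 and 548 CPM in Dup-L and 891 and 683 CPM in WT 1 and 2, had a log2 fold change of -0.49 and an adjusted p of 0.152.

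Of the other members, Mif had 14.1 and 13.1 CPM in Dup-L, against 35.8 and 35 CPM in WT 1 and 2 (log2 fold change -1.38 ± 0.26, edgeR adjusted p = 0.00674), also below every other library. Epas1 had 16.3 and 17.47 CPM, against 25.5 and 24.7 CPM (-0.57 ± 0.18, adjusted p = 0.0313). Hif1a had 242 and 247 CPM, against 198 and 177 CPM (0.38 ± 0.13, adjusted p = 0.0476), the highest levels of the 15 libraries. Its direction turned to -0.10, not called, with offsets for GC content and length. Vegfa, at 109 and 113 CPM in Dup-L and 85.1 and 124.98 CPM in WT 1 and 2, did not separate the groups, and Pdk1, Bnip3, Ankrd37, Kdm3a and P4ha1 were higher in both Dup-L libraries without passing the threshold.

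Fold changes in Dup-L moved with the GC content of the transcripts. Over 5 equal bins of the tested genes from low to high GC the median log2 fold change was 0.39, 0.19, -0.017, -0.22 and -0.50, and the median GC content was 54% for the enzymes and 54.2% for the other targets, against 50.9% for all tested genes. Mif, at 61.6%, had the highest GC content of the 34 genes and Hif1a, at 41.3%, the lowest. With offsets for GC content and length Gapdh (log2 fold change -0.76, adjusted p = 0.0298) and Hk1 (-0.69, 0.0442) remained called lower, beside 1.09% of all genes, and the medians were -0.18 for the enzymes and 0.14 for the other targets. Without Dup-L 1, Dup-L 2 or WT 1 no member was called, where 0% of all genes were, so the loss covered the whole table. Without Dup-LΔBor R2, which enters only the estimate of spread, 12 members were called, beside 22.6% of all genes.

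By their medians, marker lists also stood lower in Dup-L. The median log2 fold change over WT 1 and 2 was -0.88 for erythroid markers (2 of 8 tested called lower), -0.61 for nerve and glia (3 of 5), -0.54 for immediate early and heat shock genes (4 of 9) and -0.42 for surface ectoderm (2 of 7). Erythroid markers summed to 2400.0 and 1692 CPM in Dup-L, against 3704 and 1789 CPM in WT 1 and 2, nerve and glia markers to 54.9 and 55.7 CPM, against 75.4 and 74.6 CPM, and immediate early and heat shock genes to 81.2 and 77.1 CPM, against 127 and 137 CPM. Surface ectoderm markers summed to 602 and 444 CPM in Dup-L, against 797.5 and 606 CPM in WT. Medians were -0.30 for cartilage (1 of 6 lower), -0.26 for skeletal muscle (0 of 9), -0.25 for endothelium (2 of 10 lower, 1 higher), -0.19 for limb mesenchyme (2 of 7 lower) and -0.020 for macrophages (0 of 9). The limb mesenchyme sum went the other way from its median. It was 2184 and 2242 CPM in Dup-L, against 1925 and 2083 CPM in WT 1 and 2, and 3 of the 7 markers had log2 fold changes above 0. The part of these cell types in the levels of the enzymes was not tested.

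**Figure D4:**
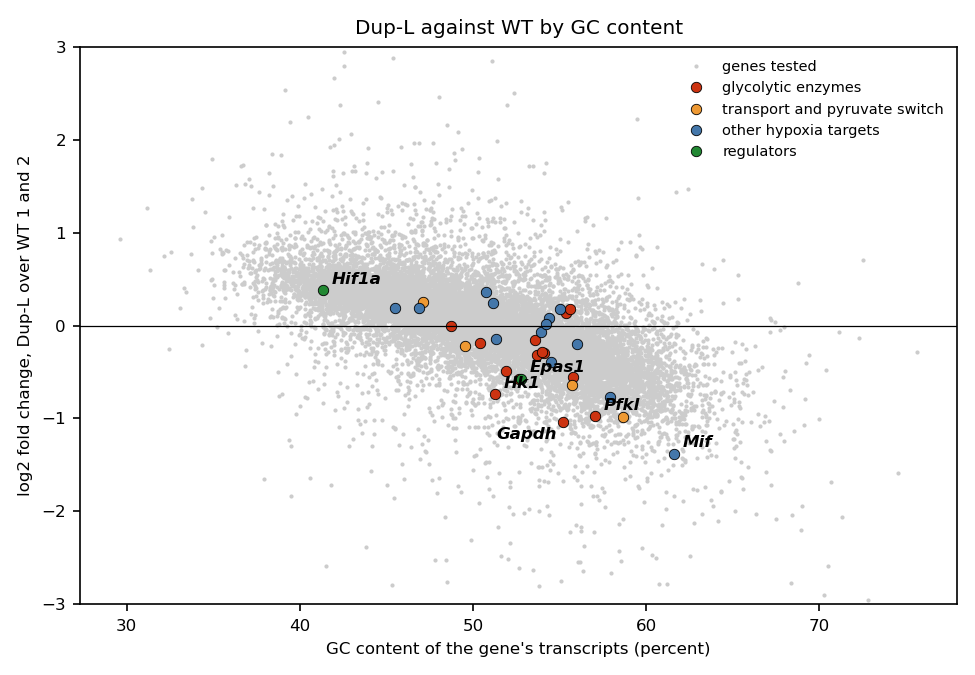
Log2 fold change in Dup-L over WT 1 and 2 (y axis, shown between -3 and 3) against the GC content of each gene's transcripts (x axis, percent), for the genes tested (grey) and the 33 genes by role (coloured). The 6 named genes passed the threshold, Mif lies at the high-GC end at -1.38 and Hif1a at the low-GC end at 0.38.

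The effects in Dup-LΔBor and Dup-L, each against the WT libraries of its own range, were compared by their difference. Dup-L and Dup-LΔBor also differ in Pitx1 and in header range, so the genotype cannot be told apart from these. The difference was above 0 for 32 of 33 genes and called for 10, all higher in Dup-LΔBor, where 13% of all genes were called and 7.38% were higher. They were the enzymes Pfkl (1.94 ± 0.34), Ldha (1.51 ± 0.32), Gapdh (1.35 ± 0.21), Gpi1 (1.19 ± 0.31), Tpi1 (0.995 ± 0.27) and Hk1 (0.83 ± 0.21), the transporters Slc16a3 (2.60 ± 0.58) and Slc2a1 (1.65 ± 0.47), and Mif (2.01 ± 0.34) and Ddit4 (1.75 ± 0.43), an inhibitor of mTORC1 signalling. The adjusted p from edgeR ran from 0.00778 for Gapdh to 0.0455 for Slc2a1. Over the GC bins, from low to high GC, the median difference of all tested genes ran from -0.41 to 0.53. With GC and length offsets Pfkl, Gapdh, Ldha and Mif passed, beside 1.12% of all genes.

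Per library, Gpi1, the isomerase of the second step, had 698, 425, 364 and 418 CPM in Dup-LΔBor, 220.3 and 217 CPM in Dup-L and 322 and 293 CPM in WT 3 and 4, with 327 and 314 CPM in WT 1 and 2. Tpi1, the triose isomerase, had 1147, 752, 619.6 and 776 CPM in Dup-LΔBor, 388 and 362 CPM in Dup-L and, over the 4 WT libraries, 446 to 529 CPM. Ddit4 had 236, 123, 110.5 and 115 CPM in Dup-LΔBor, 63.5 and 57.3 CPM in Dup-L and, over the 4 WT libraries, 67 to 104 CPM. In each of these 3 genes WT lay between the mutants, with no overlap.

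Slc16a3 had 23.7 and 21.2 CPM in Dup-L, against 49.4 and 39.8 CPM in WT 1 and 2, and Slc2a1 had 97.4 and 84.6 CPM, against 146 and 137 CPM. Neither difference passed the threshold in Dup-L alone (edgeR adjusted p = 0.117 and 0.213). Without Dup-L 1 or Dup-L 2 none of the 10 differences was called, where the share of all genes called was 0.136% and 0.374%. Without WT 1 there were 3 members, beside 1.47% of all genes, and without WT 4 there were 2, beside 1.90%. These shares stood at 13% with all libraries, so the loss was not confined to the members. Without R4 there were 16 members, beside 7.70% of all genes.

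**Figure D5:**
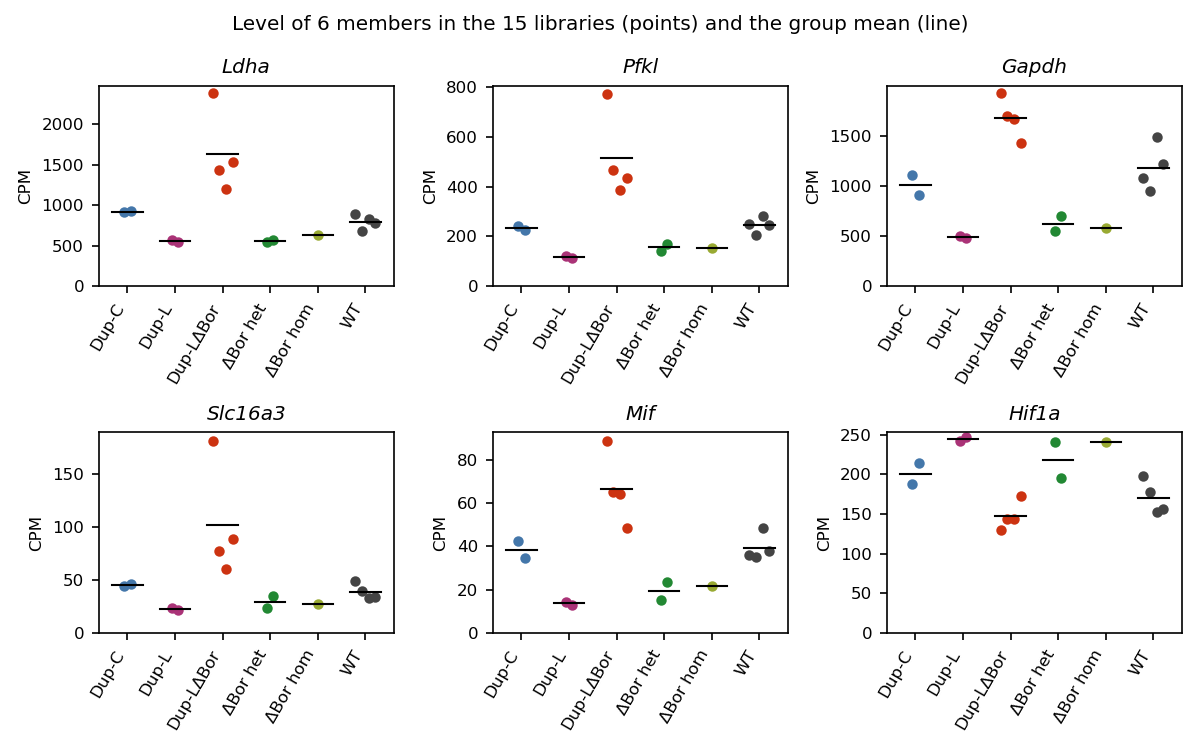
CPM (y axis, from 0) of 6 members in the 15 libraries (points) by genotype, with group means (lines); WT stands at the right of each panel. Ldha, Pfkl and Slc16a3 lie above all other libraries in Dup-LΔBor, with R2 highest at 2382, 771 and 182 CPM, and Hif1a is lowest in R2 at 130.2 CPM.

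In Dup-C, the other duplication, levels lay near those of WT 1 and 2. Of the 33 members 0 were called by edgeR, 0 had an unadjusted p under 0.05 and DESeq2 called 0, where edgeR and DESeq2 each called 0.00566% of all genes and 5.03% had an unadjusted p under 0.05. The median log2 fold change was -0.012. The 95% interval of the log2 fold change ran from -0.32 to 0.78 for Ldha, from -0.55 to 0.61 for Pfkl, from -0.36 to 0.37 for Gapdh and from -1.01 to 0.63 for Vegfa. Ldha had 914 and 931 CPM in Dup-C, against 891 and 683 CPM in WT 1 and 2. The lowest p was that of Eno2, the neuronal enolase, with 4.52 and 2.63 CPM in Dup-C and 3.69 and 7.66 CPM in WT 1 and 2 (adjusted p = 0.828).

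Against Dup-L, 5 members were higher in Dup-C and 0 lower, where 20.7% of all genes were called and 12.6% were higher. Dup-C and Dup-L also differ in Pitx1 (88.1 and 69.2 CPM against 0.518 and 0.677 CPM), so the genotype cannot be told apart from it. Gapdh had 1115 and 912 CPM in Dup-C, against 498 and 483 CPM in Dup-L (log2 fold change 1.05 ± 0.16, edgeR adjusted p = 0.00675). Mif had 42.3 and 34.8 CPM, against 14.1 and 13.1 CPM (1.50 ± 0.26, adjusted p = 0.00683). Pfkl had 241 and 228 CPM in Dup-C and 120.2 and 113 CPM in Dup-L, Hk1 68.6 and 61.7 CPM in Dup-C and 43.9 and 40.1 CPM in Dup-L, and Ldha 914 and 931 CPM in Dup-C and 574 and 548 CPM in Dup-L. The median was 0.40 for the enzymes and -0.27 for the other targets. Over the GC bins, from low to high GC, the median of all tested genes ran from -0.27 to 0.40. This comparison and Dup-L against WT share the Dup-L libraries, and the count was 0 without Dup-L 1 or Dup-L 2, where 0% of all genes were called. It was 2 without Dup-C 1 and 2 without Dup-C 2, beside 6.98% and 5.04% of all genes, and 12 without R2, beside 19.1%.

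In ΔBor het 0 of 33 members were called by edgeR, where 0.181% of all genes were. An unadjusted p under 0.05 was found for 2 of the 33, a smaller share than the 16.3% of all genes, and DESeq2 called 2, beside 2.32% of all genes. Of the 33, 28 had negative log2 fold changes, with a median of -0.24 against -0.0078 for all genes tested. Both libraries lay below WT 1 and 2 for 19 genes, beside 20.4% of all genes. Gapdh had 548 and 698 CPM in ΔBor het, against 1077 and 946 CPM in WT 1 and 2 (-0.70 ± 0.16, adjusted p = 0.105), and Mif 15.2 and 23.3 CPM, against 35.8 and 35 CPM (-0.88 ± 0.25, adjusted p = 0.172). The enzymes and targets had like medians, -0.25 and -0.29, and without ΔBor het 2 the count was 2, beside 5.32% of all genes. The median over the GC bins ran from 0.23 to -0.26.

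The single ΔBor hom library has no replicate of its own, and its test assumes the spread of the other groups. Of the 33 members 0 were called by edgeR, where 0.147% of all genes were. An unadjusted p under 0.05 was found for 4 of the 33, beside 19.5% of all genes, and DESeq2 called 1, beside 3.50%. Gapdh stood at 583 CPM in ΔBor hom, against 1077 and 946 CPM in WT 1 and 2 (log2 fold change -0.80 ± 0.20, adjusted p = 0.122). Ldha stood at 633 CPM, Pfkl at 155 CPM and Mif at 21.8 CPM in ΔBor hom, each below both WT libraries. Over the GC bins, from low to high GC, the median log2 fold change of tested genes ran from 0.31 to -0.31. Among the marker lists ΔBor hom was the highest of all libraries for erythroid markers (a sum of 6291 CPM) and the lowest for skeletal muscle (292 CPM), macrophage (60 CPM) and nerve and glia markers (49.5 CPM). Median log2 fold changes over WT 1 and 2 were 0.86 for the erythroid list, -0.79 for muscle, -0.62 for macrophage and -0.83 for nerve and glia. Their part in these levels was not tested.

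The WT libraries of the second range and those of the first differed in 0 of 33 members by edgeR, where 3.91% of all genes were called. Of the members 4 had an unadjusted p under 0.05, beside 19.5% of all genes, and DESeq2 called 0, beside 8.26%. The median log2 fold change of second over first was 0.17 for the enzymes and -0.054 for the other targets. The lowest adjusted p was that of Hk1, 0.149, with 102 and 85 CPM in WT 3 and 4 and 71.5 and 68.6 CPM in WT 1 and 2.

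Of 61 other genes of glycolysis and the hypoxia response, 58 were tested. In Dup-L 3 rose and 6 fell, a smaller share than the 23.7% of all genes called. Those of lowest p were Egln2, a HIF prolyl hydroxylase (log2 fold change -0.91, edgeR adjusted p = 0.00636), the histone demethylase gene Kdm4b (-0.72, 0.00742), Vhl, the substrate receptor that marks HIF alpha for destruction (0.31, 0.0183), the ubiquitin ligase gene Wsb1 (0.70, 0.0229), Zfp395 (-0.56, 0.0245) and the pyruvate dehydrogenase kinase gene Pdk2 (-0.50, 0.0272). With GC and length offsets 0 of the 58 were called, beside 1.83% of all genes. In Dup-LΔBor 0 were called against WT 3 and 4, with 18 (15 of them higher) at an unadjusted p under 0.05, beside 14.3% of all genes, and the median was 0.16. Their lowest p was that of Pkm2 (1.20, adjusted p = 0.0515), an entry of few reads beside Pkm, the pyruvate kinase entry that holds most of them.

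In the difference of effects between Dup-LΔBor and Dup-L, 5 of the 58 were higher, near the 7.38% of all genes, and 1 was lower, beside 5.64%. The higher ones were Pkm (1.36, edgeR adjusted p = 0.0207), Kdm4b (0.99), Egln2 (0.96), Zfp395 (0.71) and Slc2a4, the GLUT4 transporter (0.60), and Vhl was the lower one (-0.37, adjusted p = 0.04). In Dup-C against Dup-L 5 of the 58 rose and 5 fell, both shares below or near those of all genes, 12.6% and 8.07%. Egln2 (0.89) and Kdm4b (0.71) were among those that rose, and Lox, a collagen cross-linking enzyme (-1.38), among those that fell. Between the WT ranges Pdha1, a subunit of pyruvate dehydrogenase, was higher in the second (0.44, adjusted p = 0.0241).

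As a description, the 10 other genes whose log2 CPM followed the ranking most closely over the 15 libraries, by Pearson's r, were Pfkfb3, Pgm2, Stc2, Selenbp1, Lpin1, Atp7b, Fat3, Rgs11, Muc2 and Slc6a6, with r from 0.969 to 0.93. All of them share the libraries of the ranking, and the 4 Dup-LΔBor libraries stand apart in it, so r over the other 11 libraries is given too. It was 0.834 for Pfkfb3, which makes the activator of phosphofructokinase, 0.818 for Pgm2, a phosphoglucomutase, and as low as 0.443 for Fat3, a protocadherin. Pfkfb3 averaged 98.8 CPM in Dup-LΔBor and 45.6 CPM in the other libraries, and Stc2, a secreted stanniocalcin, 6.97 and 2.21 CPM.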

How the data were processed

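RNA of E12.5 limb buds was extracted with Trizol and RNeasy columns and made into poly(A) libraries with the TruSeq RNA V2 kit, per the labels' protocols. The authors deposited one table of read counts per gene and one of FPKM values, counts scaled to transcript length and library size, each with 15 columns. The submitters' processing notes name STAR, DESeq2, bedtools 2.17.0 and mm9; the sources used here do not give the counting tool, annotation, strand setting or FPKM calculation. A column name that gave the genotype but no single sample (Dup-LΔBor) was assigned to its group only.

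Counts were fitted with edgeR 4.0.16 in R 4.3.3 (TMM scaling, filterByExpr, robust quasi-likelihood test, 15 libraries in 7 groups with WT separated by header range, 8 residual degrees of freedom). Adjusted p-values are Benjamini-Hochberg values over 17655 genes, called at 0.05, and log2 CPM used a prior count of 2. DESeq2 1.42.0, limma 3.58.1 on log2(FPKM + 1), offsets for GC content and length, other scalings and left-out libraries were alternatives. GC content and length were medians over the GENCODE transcripts of each gene name, with GC content for 86.4% of the genes tested. Promoters came from RefSeq GRCm38.p6. Of both references only names and sequences were used. Tested on simulated data, the fit called 98% of 200 genes changed 2-fold in Dup-LΔBor against WT (17174 genes) and 86.5% in Dup-L against WT (17189 genes). The simulated counts had the same spread for every gene, and only well-counted genes were changed. They held no library that stood apart as R2 does and no GC trend. These shares therefore check the fit and do not give the power in the real data.

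The members and lists were chosen with earlier results of these data known. Per-library values are given for members past the threshold, the lowest-p member where none passed, both regulators and the highest member of each role. Some other members, among them Hk2, Slc2a3, Vegfa and Bnip3, are shown outside this rule. Replicate numbers did not pair libraries: correlations of same-numbered deviations ran from -0.18 to 0.098.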

Additional observations from a re-analysis of the deposited data

Results flagged for a closer look

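Among the 4 Dup-LΔBor libraries, Ddit4 stood at 236.3 CPM in R2 and between 110.5 and 122.5 CPM in the others. The gap took 0.904 of the range and passed Dixon's critical value at the 95% level, which chance passes in about 1 in 20 groups. Ddit4 was flagged for this gap and not chosen beforehand, and R2 was the highest library for 30 of the 33 genes.

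The effect of Dup-LΔBor and that of Dup-L, each over WT of its own range, differed by edgeR's quasi-likelihood test of the difference for 10 members. On the log2 scale, Dup-LΔBor minus Dup-L, it was 2.60 for Slc16a3, 2.01 for Mif, 1.94 for Pfkl, 1.75 for Ddit4, 1.65 for Slc2a1, 1.51 for Ldha, 1.35 for Gapdh, 1.19 for Gpi1, 0.995 for Tpi1 and 0.83 for Hk1. All 4 Dup-LΔBor libraries lay above both Dup-L libraries in each of the 10 genes, which were picked by the test of the difference. Of all genes tested, 13% were called for the difference and 7.38% were called higher in Dup-LΔBor.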

How the results depend on the processing

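Over comparisons, 385 of the recomputed counts and medians stayed within the limits set for a change and 63 moved. Members called in Dup-LΔBor against WT, 0 at first, were 11 with DESeq2, 13 with all WT libraries as 1 group, 8 when R2 was also left out and 1 with GC and length offsets, where 2.39%, 3.85%, 0.893% and 0.884% of all genes were called (0.396% at first). In Dup-L against WT, 6 at first, they were 11 with only libraries of the range, 2 with the offsets, 14 with all WT as 1 group and R2 left out, and 9 with the replicate number as a block, beside 17.6%, 1.83%, 31.5% and 9.44% of all genes (23.7% at first). For the difference of effects, 10 at first, they were 26 with all WT as 1 group and 22 when R2 was also left out. Of all genes 43.6% and 38.5% were called there (13% at first), so the rise was general. WT drops out of the difference in those fits, which compare Dup-LΔBor with Dup-L directly across the header ranges. Members called were 4 with the offsets and 5 with limma on unfiltered FPKM, beside 2.14% and 3.87% of all genes. In Dup-C against Dup-L, 5 at first, they were 12 within the range, 3 with the offsets, 3 with limma on unfiltered FPKM, 9 with the replicate block and 11 with all WT as 1 group and R2 left out, beside 15.4%, 8.24%, 9.96%, 9.66% and 13.8% of all genes (20.7% at first). In ΔBor het DESeq2 called 2, all WT as 1 group 2 and that without R2 3, beside 2.32%, 4.03% and 0.938% of all genes, and in ΔBor hom DESeq2 and all WT as 1 group called 1 each, beside 3.50% and 1.27%.

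The median of enzymes minus that of other targets was -0.32 in Dup-L, and -0.50 with the copy entries of Aldoa and of Eno1 summed. It was 0.075 in Dup-C, and -0.065 with all WT as 1 group (-0.064 without R2). It was -0.017 in Dup-LΔBor, and 0.13 with all WT as 1 group and R2 left out, and -0.0083 in ΔBor hom, and -0.15 with limma on log2(FPKM + 1). With the offsets it was 0.46 in Dup-C against Dup-L and 0.088 for the difference of effects. All WT as 1 group without R2, which compares Dup-LΔBor with Dup-L directly, gave 0.46.

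Where leaving out a library left 1 in a group, that library was assumed to vary like the other groups. Leaving out single libraries gave 0 to 12 called members in Dup-L, 0 to 3 in Dup-LΔBor, 0 to 2 in ΔBor het, 0 to 12 in Dup-C against Dup-L, 0 to 16 for the difference of effects, and 0 in Dup-C, ΔBor hom and between the WT ranges. The median difference ran from -0.067 to 0.22 in Dup-C, -0.67 to -0.10 in Dup-L, -0.24 to 0.11 in Dup-LΔBor, -0.20 to 0.056 in ΔBor het, -0.15 to 0.13 in ΔBor hom, 0.46 to 0.68 in Dup-C against Dup-L, 0.079 to 0.44 for the difference of effects and 0.22 to 0.59 between the WT ranges. Of values for single members 1 turned round, Hif1a in Dup-L, to -0.10 with the offsets, and 121 recomputed values of called members no longer passed. The causes were not tested. With the replicate block Hif1a in Dup-L was 0.34 and not called, and 0 members were called in Dup-C and in ΔBor het. The sums of copy entries and the joint WT group without R2 were chosen after the data were seen. With 1 to 4 libraries a genotype, small differences could not be told from the spread.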
